A study of Ovis aries with 6 samples.

Results

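Interferon-stimulated genes are the genes that cells switch on when interferons, the cytokines released on sensing a virus, bind their receptors. A broad set of 45 such genes was listed by symbol for their known role and compared in the skin of 2 breeds of sheep. The set was listed with earlier results of these data known. The deposited values carry 41 of the 45 under their symbol, out of 28394 genes in all. Enough counts for a test, at least 10 in at least 3 sheep, were present for 40 of them, out of 15320 genes tested. The member with too few counts was OASL, a relative of the oligoadenylate synthetases, which had 1 count in each of 2 STH sheep and 0 in the others. IFIT1, BST2, SAMD9 and DDX60 were not found under those names and are not counted among the 41.

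Type I interferons signal through a shared pair of receptor chains and the kinases JAK1 and TYK2, which phosphorylate STAT proteins, among them STAT2. With IRF9 these form the transcription factor complex that binds the promoters of the stimulated genes. The products include effectors that block viral entry, replication or translation, the ubiquitin-like modifier ISG15 with its conjugation enzymes, the cytosolic sensors of viral RNA and DNA, and the signalling proteins themselves, so that the pathway amplifies its own response. Keratinocytes, fibroblasts, endothelial cells and immune cells of the skin can all carry this response.

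The samples were skin from behind the shoulder blade of Super Merino (SM) sheep, a fine wool breed, and Small Tail Han (STH) sheep, a coarse wool breed. Each breed had n = 3 separate animals with 1 library of polyA RNA each, SM animals 128, 30034 and 30126 against STH animals XW3, XW5 and XW8. The sample records give an age of 9 months for all, whereas the methods of the study state a younger age, and according to those methods the animals were ewes kept on the same farm and feed. No treatment or infection was given by the labels, and breed is the single difference that they record.

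Total counts ranged from 28870583 in SM sheep 128 to 44645091 in SM sheep 30034, at which 3 counts of a gene are between 0.0672 and 0.104 CPM, the count scaled to a common library size. Such limits cover counting error and not the spread between animals. Markers of skin were high in every sheep, with the basal keratinocyte keratin KRT5 between 4670 and 8419 CPM and the collagen gene COL1A1 of fibroblasts between 5004 and 8048 CPM. In whole skin, fewer cells of a type and less RNA per cell cannot be told apart. Values by sheep are CPM normalized by edgeR's TMM method, and each set of values below follows the order 128, 30034 and 30126 in SM and XW3, XW5 and XW8 in STH sheep. Log2 fold changes are SM over STH, given with a standard error (SE), and are positive where SM was higher.

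The interferon-stimulated genes stood higher in SM skin on average, but no single member passed the thresholds of the main test. The log2 fold change was above 0 for 33 of the 40 members and below 0 for 7, with a median of 0.57 against 0.02 over all genes tested. Of all 15320 genes tested, 7873 were above 0 and 7447 below. By edgeR's quasi-likelihood test, 0 members had an adjusted p under 0.05 together with a change of over 1.5-fold, in either direction, and 0% of all genes did. Counts of 0 members were also given by limma-voom and by the newer dispersion estimate of edgeR. At an unadjusted p under 0.05, 17 of the 40 members (42.5%) were higher in SM and 0 were lower, whereas 7.21% of all genes were higher and 10.8% lower. With each sheep's trend on exon length removed, these shares of all genes were 10.4% and 9.32%, and with upper quartile scaling 9.38% and 9.15%, beside 22 and 17 members higher and 0 lower.

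Tests that do not carry the uncertainty of the dispersion estimates passed 8 members. MX1, MX2, RSAD2, OAS1, OAS2, ISG15, UBE2L6 and IFI6 were higher in SM by both thresholds in edgeR's likelihood ratio test, and the same 8 genes in DESeq2. No member was lower in either test. Over all genes, the likelihood ratio test called 0.868% higher and 1.43% lower, and DESeq2 1.02% and 1.85%. The breeds did not overlap, with SM the higher, in 16 of the 40 members, against 12.3% of all genes, and with SM the lower in 0 members, against 13.3%.

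**Figure D1:**
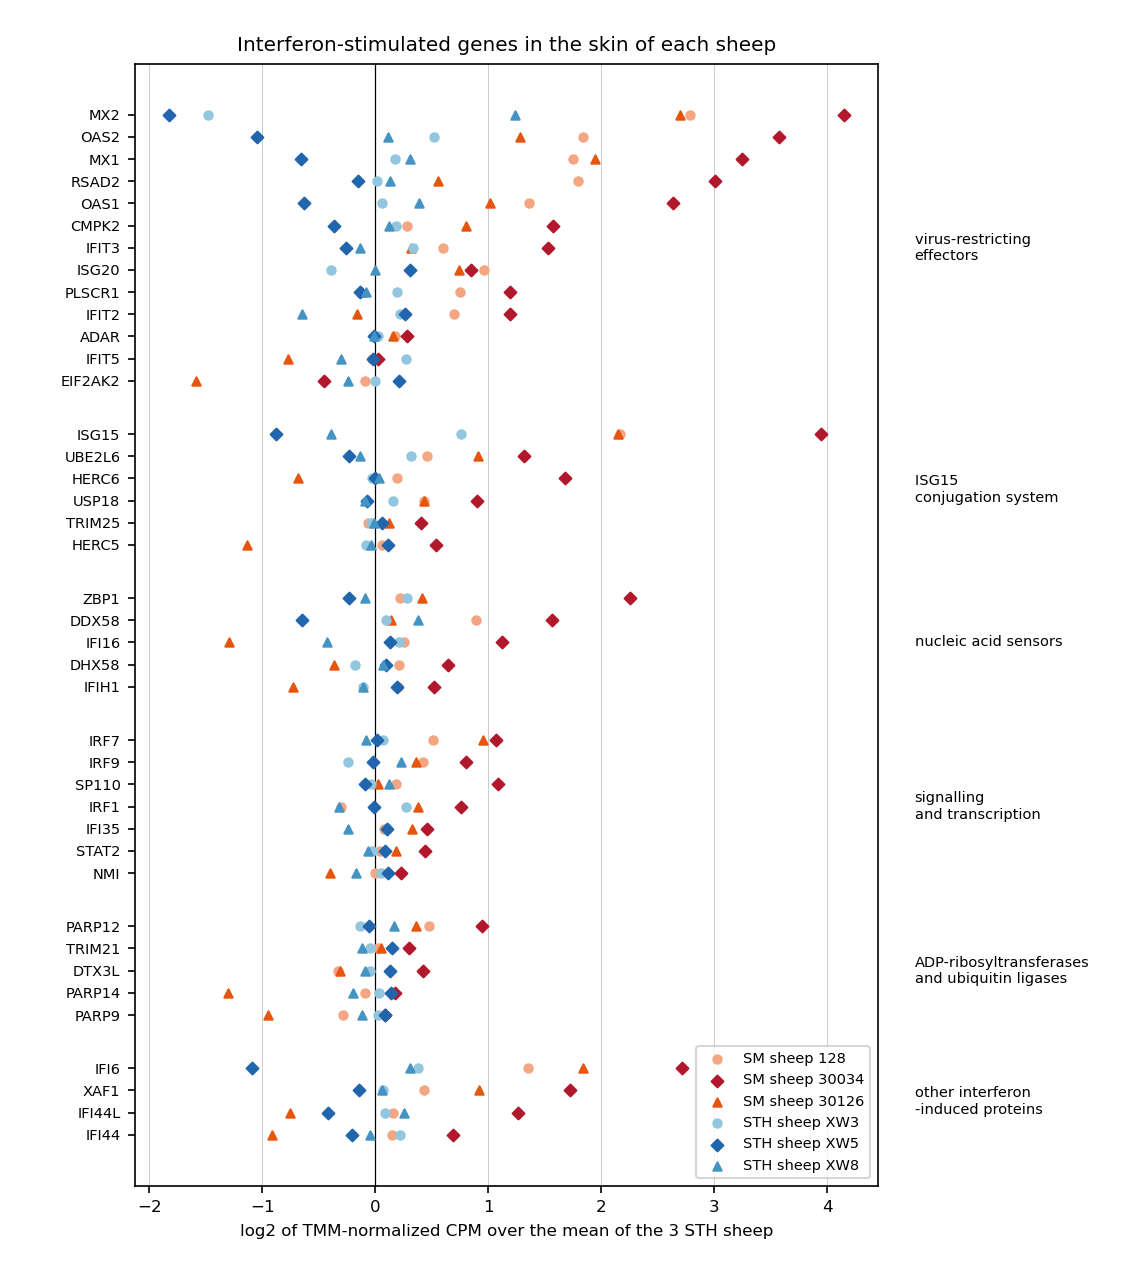
Each row is 1 of the 40 tested interferon-stimulated genes, grouped by role, and each symbol is 1 sheep, placed on the horizontal axis at the log2 of its TMM-normalized CPM over the mean of the 3 STH sheep (SM in red and orange, STH in blue). SM sheep 30034 is the highest of the 6 sheep in 37 of the 40 rows, and the log2 fold change is highest, from 1.85 to 3.40, in MX2, ISG15, OAS2, MX1, RSAD2, IFI6 and OAS1.

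Among the virus-restricting effectors, 13 members were tested, 11 of them with a positive log2 fold change, and their median was 0.92. An unadjusted p under 0.05 was reached by 7, all higher in SM, and without SM sheep 30034 the median was 0.56 with 5 at that threshold. Over all genes, 7.21% were higher at that threshold with all sheep and 4.57% without SM sheep 30034. These shares also stand beside the counts of the role groups and lists that follow. MX1, a dynamin-like GTPase that traps viral nucleocapsids, had 32.2, 90.8 and 37.0 CPM in the SM sheep and 10.8, 6.09 and 11.9 CPM in the STH sheep. Every SM sheep therefore lay above every STH sheep, and SM sheep 30034 lay far above the other two. The log2 fold change was 2.48 (SE 0.43, adjusted p = 0.159 by quasi-likelihood in edgeR), with a range of 1.84 to 2.74 over the fits that omit a sheep. MX1 had the smallest adjusted p of the 40 members in this test.

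MX2, its neighbour and paralogue, had 8.13, 20.8 and 7.64 CPM in SM and 0.422, 0.332 and 2.78 CPM in STH. The breeds did not overlap, but STH sheep XW3 and XW5 rested on 13 and 14 counts, and STH sheep XW8 on 84. The log2 fold change was 3.40 (SE 0.79, adjusted p = 0.215 by quasi-likelihood in edgeR), the highest of the members, with a range of 2.75 to 5.02 as each sheep was left out. The upper end was reached without XW8 and the lower end without SM sheep 30034.

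OAS1, which makes the short oligoadenylates that activate the antiviral ribonuclease RNase L, had 41.0, 99.4 and 32.3 CPM in SM and 16.7, 10.3 and 21.0 CPM in STH. The breeds did not overlap, and the log2 fold change was 1.85 (SE 0.43, adjusted p = 0.215 by quasi-likelihood in edgeR). On chromosome 17 the annotated span of OAS1 overlaps other genes on the same strand, among them LOC101110181, so that the division of reads between them is uncertain. Spans also overlap another gene on the same strand in IFI35 and PARP14 and on the opposite strand in MX2, RSAD2, ADAR, ZBP1, STAT2, SP110 and PARP9, and whether the counting kept strand is not given in the sources used here. LOC101110181 was also higher in all SM than in all STH sheep, with a log2 fold change of 2.23. IFIT5, which binds the ends of viral RNA, was the effector with the largest p, at 42.1, 43.6 and 25.1 CPM in SM and 51.8, 42.3 and 34.7 CPM in STH. Its breeds overlapped in part, with the lowest value in SM sheep 30126 and the highest in STH sheep XW3, and its log2 fold change of -0.22 (SE 0.24, adjusted p = 0.606 by quasi-likelihood in edgeR) was 0.01 without SM sheep 30126.

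Values of 2 further effectors are given because both the likelihood ratio test and DESeq2 passed them, a choice made after their values were seen. RSAD2, which encodes viperin, an enzyme that makes a chain-terminating nucleotide, had 10.7, 24.7 and 4.54 CPM in SM and 3.11, 2.77 and 3.38 CPM in STH. The STH sheep were close to each other, whereas the SM sheep were spread widely and the lowest of them stood just above STH. The log2 fold change was 2.11 (SE 0.53, adjusted p = 0.234 by quasi-likelihood in edgeR) and 1.30 without SM sheep 30034. OAS2, a larger synthetase of the same family, had 6.15, 20.4 and 4.18 CPM in SM and 2.46, 0.829 and 1.85 CPM in STH, and its log2 fold change of 2.59 (SE 0.64) was 1.59 without SM sheep 30034.

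The other effectors were closer between the breeds. CMPK2, a mitochondrial nucleotide kinase, and IFIT3, a partner of other IFIT proteins in binding viral RNA, had log2 fold changes of 0.99 and 0.92, each with an unadjusted p under 0.05. ISG20, an exonuclease, PLSCR1, a phospholipid scramblase that restricts viral entry, and IFIT2 had values from 0.68 to 0.84 and did not reach it. In ISG20 the SM sheep lay above STH on 45 to 62 counts against 18 to 40. ADAR, which edits double-stranded RNA, differed by 0.20 with all SM sheep, at 82.9 to 90.3 CPM, above all STH sheep, at 73.7 to 75.7 CPM. EIF2AK2, which encodes the kinase PKR that shuts down translation, was the member with the lowest log2 fold change, at -0.59 (SE 0.34, adjusted p = 0.348 by quasi-likelihood in edgeR), and was 5.58 CPM in SM sheep 30126 against 12.2 to 19.3 CPM in the other sheep.

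In the ISG15 conjugation system, which attaches ISG15 to other proteins much as ubiquitin is attached, 6 members were tested with a median of 0.67, and 3 were higher in SM at an unadjusted p under 0.05. Without SM sheep 30034 the median was 0.22, with 2 at that threshold. ISG15 itself had 4.30, 14.7 and 4.23 CPM in SM and 1.62, 0.521 and 0.728 CPM in STH. The breeds did not overlap, on 130 to 664 counts against 22 to 50. The log2 fold change was 3.03 (SE 0.63, adjusted p = 0.199 by quasi-likelihood in edgeR), with a range of 2.15 to 3.64 as each sheep was left out. UBE2L6, the enzyme that carries ISG15 to its ligase, had 26.7, 48.4 and 36.5 CPM in SM and 24.2, 16.5 and 17.7 CPM in STH. The breeds were separated by a narrow gap between SM sheep 128 and STH sheep XW3, and the log2 fold change was 0.94 (SE 0.24, adjusted p = 0.240 by quasi-likelihood in edgeR).

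USP18, the protease that removes ISG15 and also dampens receptor signalling, had 11.8, 16.3 and 11.8 CPM in SM and 9.79, 8.32 and 8.21 CPM in STH. Its breeds did not overlap, and its log2 fold change was 0.60 (SE 0.20, adjusted p = 0.247 by quasi-likelihood in edgeR). HERC5, the main ISG15 ligase in humans, did not share this pattern, at 6.88, 9.61 and 3.01 CPM in SM and 6.26, 7.16 and 6.42 CPM in STH. SM sheep held both the highest and the lowest value, and the log2 fold change of -0.02 (SE 0.38) was 0.33 without SM sheep 30126. HERC6, the neighbouring ligase gene, was at 11.4 CPM in SM sheep 30034 and between 2.22 and 4.07 CPM in the other 5 sheep, so that its log2 fold change of 0.73 was -0.19 without that animal. TRIM25, a ubiquitin ligase that activates RIG-I, differed by 0.17.

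The nucleic acid sensors had a median log2 fold change of 0.33 over 5 members, all positive, with 2 at an unadjusted p under 0.05. Without SM sheep 30034 the median was -0.06 and 0 of the 5 reached that threshold. In none of the 5 did all SM sheep lie above all STH sheep. DDX58, which encodes the viral RNA sensor RIG-I, had 39.4, 63.1 and 23.5 CPM in SM and 22.7, 13.6 and 27.6 CPM in STH, with SM sheep 30126 inside the STH range. Its log2 fold change was 0.98 (SE 0.37, adjusted p = 0.256 by quasi-likelihood in edgeR). ZBP1, a sensor of Z-form nucleic acids that can trigger cell death, had 1.55, 6.38 and 1.78 CPM in SM and 1.62, 1.14 and 1.26 CPM in STH. Here 1 animal set the difference, since the log2 fold change of 1.28 (SE 0.56, adjusted p = 0.277 by quasi-likelihood in edgeR) was 0.31 without SM sheep 30034.

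DHX58, which encodes LGP2, a regulator of the other RNA sensors, had 7.44, 10.01 and 4.97 CPM in SM and 5.67, 6.85 and 6.72 CPM in STH. IFIH1, which encodes MDA5, a sensor of long double-stranded RNA, had 31.2, 38.9 and 16.4 CPM in SM and 25.2, 31.1 and 25.3 CPM in STH. In both genes SM sheep 30034 was the highest and SM sheep 30126 the lowest of the 6 sheep. Their log2 fold changes were 0.22 (SE 0.28) and 0.08 (SE 0.29), and they turned to -0.06 and -0.20 without SM sheep 30034. IFI16, a sensor of DNA, had the same order of animals, and its log2 fold change of 0.33 was -0.32 without SM sheep 30034.

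The signalling and transcription members had a median of 0.35 over 7 genes, with 2 at an unadjusted p under 0.05, and of 0.10 with 0 at that threshold when SM sheep 30034 was left out. IRF7, the factor that drives the second wave of interferon transcription, had 2.94, 4.34 and 4.0 CPM in SM and 2.17, 2.09 and 1.95 CPM in STH. The STH sheep were almost alike and all lay below the SM sheep, and the log2 fold change was 0.86 (SE 0.29, adjusted p = 0.247 by quasi-likelihood in edgeR). IRF9, the DNA-binding part of that transcription factor complex, had 35.0, 45.3 and 33.5 CPM in SM and 22.0, 25.6 and 30.6 CPM in STH, without overlap, and its log2 fold change was 0.54 (SE 0.18, adjusted p = 0.248 by quasi-likelihood in edgeR).

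SP110, a nuclear body protein, had 23.5, 44.0 and 21.0 CPM in SM and 20.1, 19.4 and 22.5 CPM in STH. SM sheep 30034 stood alone, and the log2 fold change of 0.51 (SE 0.27, adjusted p = 0.324 by quasi-likelihood in edgeR) was 0.10 without it. NMI, a partner of STAT proteins, had 19.2, 22.4 and 14.6 CPM in SM and 19.8, 20.7 and 17.1 CPM in STH, with a log2 fold change of -0.04 (SE 0.19). STAT2, a transcription factor of type I signalling, IRF1, a transcription factor that responds to interferon gamma as well, and IFI35, a partner of NMI, had log2 fold changes from 0.23 to 0.35, none at an unadjusted p under 0.05.

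The ADP-ribosyltransferases and ubiquitin ligases were not higher as a group, with a median of -0.03 over 5 members and of -0.33 without SM sheep 30034. PARP12, which modifies proteins with ADP-ribose and limits viral translation, was the exception, at 13.8, 19.1 and 12.7 CPM in SM and 9.05, 9.55 and 11.2 CPM in STH, without overlap. Its log2 fold change was 0.62 (SE 0.21, adjusted p = 0.247 by quasi-likelihood in edgeR). PARP9, PARP14 and DTX3L lie side by side on chromosome 1, and the products of PARP9 and DTX3L work as a pair in ADP-ribosylation and ubiquitination. PARP9 had 13.0, 16.8 and 8.15 CPM in SM and 16.1, 16.7 and 14.6 CPM in STH, and a log2 fold change of -0.32 (SE 0.25). PARP14 had 26.8, 32.2 and 11.5 CPM in SM and 29.1, 31.5 and 24.9 CPM in STH, and a log2 fold change of -0.28 (SE 0.33).

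SM sheep 30126 was the lowest of the 6 in both PARP9 and PARP14, which did not pass any test in either direction. DTX3L had 21.4, 36.1 and 21.7 CPM in SM and 26.0, 29.4 and 25.2 CPM in STH, with SM sheep on both sides of the STH range and a log2 fold change of -0.03 (SE 0.22). TRIM21, a cytosolic antibody receptor and ubiquitin ligase, differed by 0.13.

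The other interferon-induced proteins had a median of 0.79 over 4 members, of which 2 had an unadjusted p under 0.05. Without SM sheep 30034 the median was 0.22, with 1 at that threshold. IFI6, a small membrane protein that inhibits the replication of flaviviruses, had 45.7, 117.5 and 64.0 CPM in SM and 23.2, 8.41 and 22.1 CPM in STH. The lowest SM sheep lay well above the highest STH sheep, and the log2 fold change was 2.09 (SE 0.44, adjusted p = 0.1996 by quasi-likelihood in edgeR), with a range of 1.60 to 2.35 as each sheep was left out. XAF1, a pro-apoptotic protein, had 3.24, 7.97 and 4.56 CPM in SM and 2.53, 2.18 and 2.52 CPM in STH, again without overlap, and a log2 fold change of 1.13 (SE 0.36, adjusted p = 0.247 by quasi-likelihood in edgeR).

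IFI44L and IFI44 are neighbouring genes for a pair of related interferon-induced proteins. IFI44L had 5.75, 12.4 and 3.06 CPM in SM and 5.48, 3.86 and 6.16 CPM in STH, and IFI44 had 4.69, 6.82 and 2.24 CPM in SM and 4.93, 3.67 and 4.10 CPM in STH. Both were highest in SM sheep 30034 and lowest in SM sheep 30126. The log2 fold changes of 0.46 (SE 0.46) and 0.12 (SE 0.39) were -0.24 and -0.30 without SM sheep 30034.

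The members depended strongly on which SM sheep was considered. SM sheep 30034 was the highest of the 6 sheep in 37 of the 40 members, against 10% of all genes. The exceptions were ISG20, where SM sheep 128 was the highest, IFIT5 and EIF2AK2. The ratio of its CPM to the mean of the other 2 SM sheep had a median of 1.72 over the members, with a range from 0.994 in ISG20 to 3.95 in OAS2, and a median of 0.974 over all genes. SM sheep 30126 was the lowest of the 6 in 12 members, or 30%, which is close to its 31.5% of all genes. It was the highest in 0 members, however, against 5121 of the 15320 genes tested. Its ratio to the mean of the other 2 SM sheep had a median of 0.577 over the members and 0.996 over all genes. That ratio was above 1 in 3 of the 40 members, against 49.6% of all genes.

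Set against the mean of the STH sheep, the SM sheep differed in how many members stood higher. The median ratio over the members was 2.01 in SM sheep 30034, with 39 members above 1 and 20 above 2-fold. It was 1.18 in SM sheep 128, with 32 members above 1 and 7 above 2-fold, and 1.13 in SM sheep 30126, with 25 and 6. Over all genes the median ratio was between 0.984 and 1.01 in the 3 SM sheep, and the share above 2-fold was 2.1% in 128, 2.21% in 30034 and 3.55% in 30126. The share of all genes above 1 was 46.7% in 128, 50.1% in 30034 and 50.5% in 30126. The median member was thus above the STH mean in each SM library, and by the most in 30034.

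Leaving out SM sheep 30034 took the median log2 fold change of the members from 0.57 to 0.25, and lowered the value of all 40. Such a fall follows where 30034 lies above the mean of the other 2 SM sheep, as it did in 39 of the 40, so only its size is informative. At an unadjusted p under 0.05 in edgeR's quasi-likelihood test, 8 members were then higher, against 4.57% of all genes, and 0 lower, against 6.08%. These were MX1, MX2, RSAD2, OAS1, OAS2, ISG15, UBE2L6 and IFI6, the same genes that the likelihood ratio test passed with all sheep. The likelihood ratio test without 30034 passed MX1, OAS1, ISG15 and IFI6, against 0.561% of all genes higher, and no member lower, against 0.74%. With 2 SM sheep left, the fit assumes that SM and STH sheep vary alike.

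SM sheep 30034 also set the direction of 6 members. HERC6, IFIH1, DHX58, IFI16, IFI44 and IFI44L were above 0 with all sheep and below 0 without it. Of the 40 members, 29 kept their sign under 9 alternative settings and in the fits that omit a sheep.

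Other sheep moved the counts as well. Without SM sheep 128, the quasi-likelihood test passed 10 members, all higher in SM, against 1.34% of all genes higher, and 0 lower, against 6.39%. These were the 8 above with CMPK2 and XAF1, and MX1 had the smallest adjusted p, 0.0163. The likelihood ratio test without 128 passed 13 members, against 3.53% of all genes. STH sheep XW5 was the lowest of the 6 in 15 of the 40 members and in 3287 of the 15320 genes tested. Without XW5, 11 members were higher at an unadjusted p under 0.05, against 3.13% of all genes, and the likelihood ratio test passed 4, against 0.358%. Without STH sheep XW8 that test passed 5, against 0.402%. Without SM sheep 30126, the count of members in which the remaining SM sheep lay above all STH sheep was 25, against 16.3% of all genes, a count that can only stay or rise when an SM sheep is left out.

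**Figure D2:**
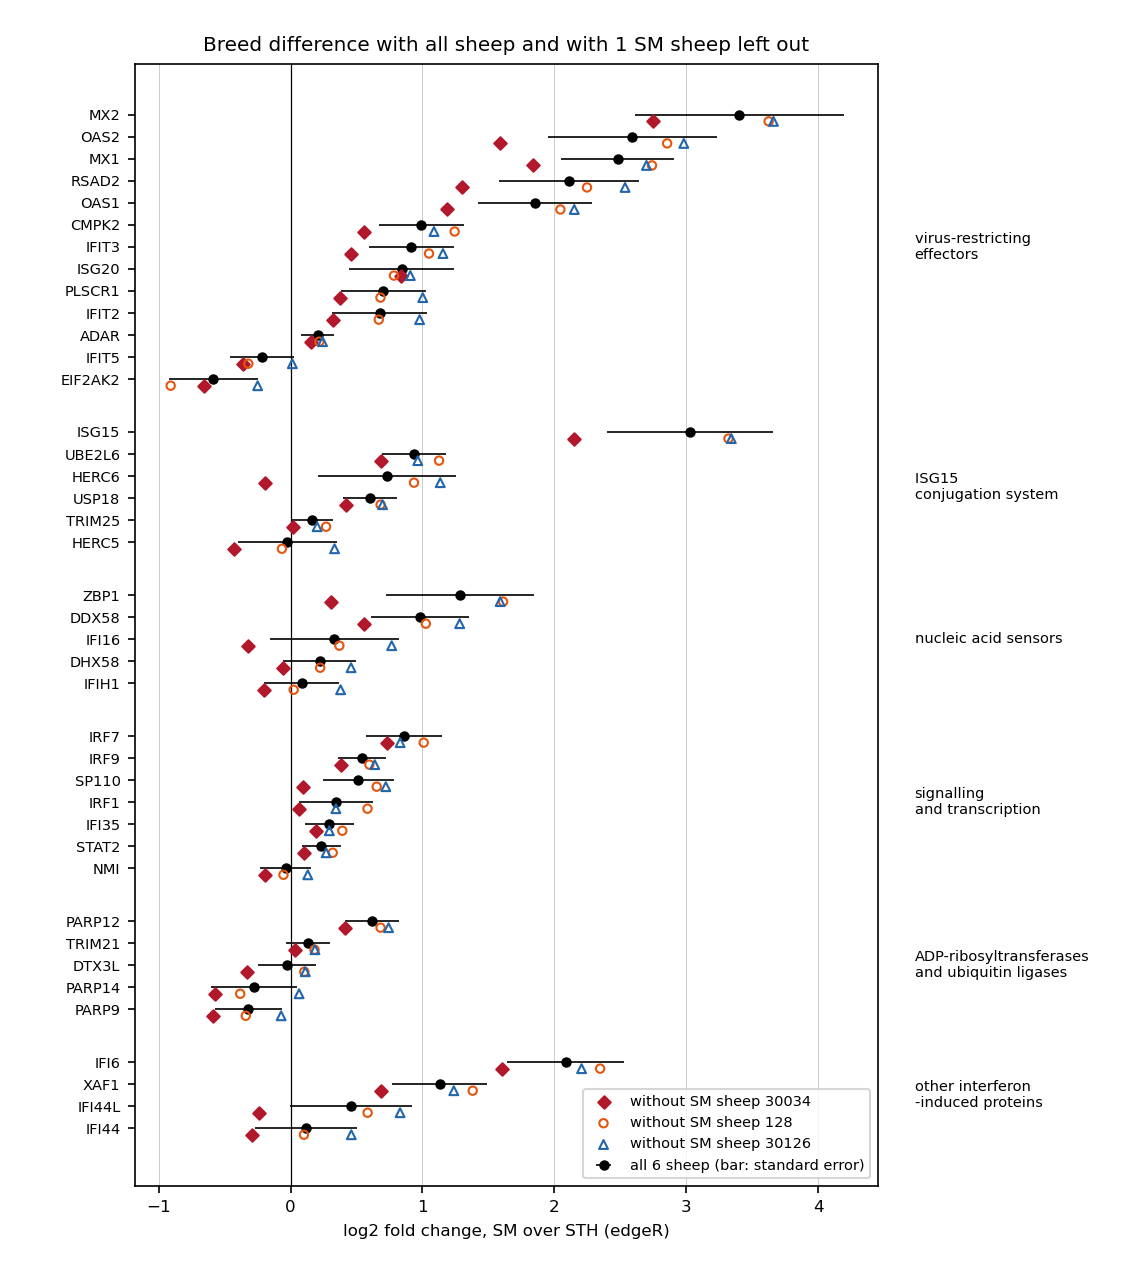
Each row is 1 tested member, with the edgeR log2 fold change of SM over STH on the horizontal axis from all 6 sheep (black, with its standard error) and with 1 SM sheep left out (red diamonds without 30034, orange circles without 128, blue triangles without 30126). The red diamonds lie left of the black points in all 40 rows and cross 0 in HERC6, IFIH1, DHX58, IFI16, IFI44 and IFI44L, while MX2, MX1, ISG15 and IFI6 stay at or above 1.60 on the log2 scale.

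Levels can be compared between genes on the deposited RPKM scale, which divides by exon length. By the median over the 6 sheep, IFI6 was the highest member at 30.3 RPKM, followed by UBE2L6 at 14.7, IFIT5 at 9.32, ADAR at 8.63 and IRF9 at 7.92 RPKM. IFI6 was between 39.9 and 107.4 RPKM in SM and between 7.22 and 20.7 RPKM in STH, whereas UBE2L6 had 15.3 to 29.0 and 9.28 to 14.1 RPKM, so that the order of these 2 genes held in each SM sheep but not in STH sheep XW5. IFIT5, ADAR and IRF9 had overlapping ranges over the 6 sheep. The lowest tested members were OAS2 at 0.227, ZBP1 at 0.332, ISG20 at 0.392 and MX2 at 0.466 RPKM. MX2 and ISG15, with the highest log2 fold changes, had medians of 0.466 and 3.35 RPKM.

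**Figure D3:**
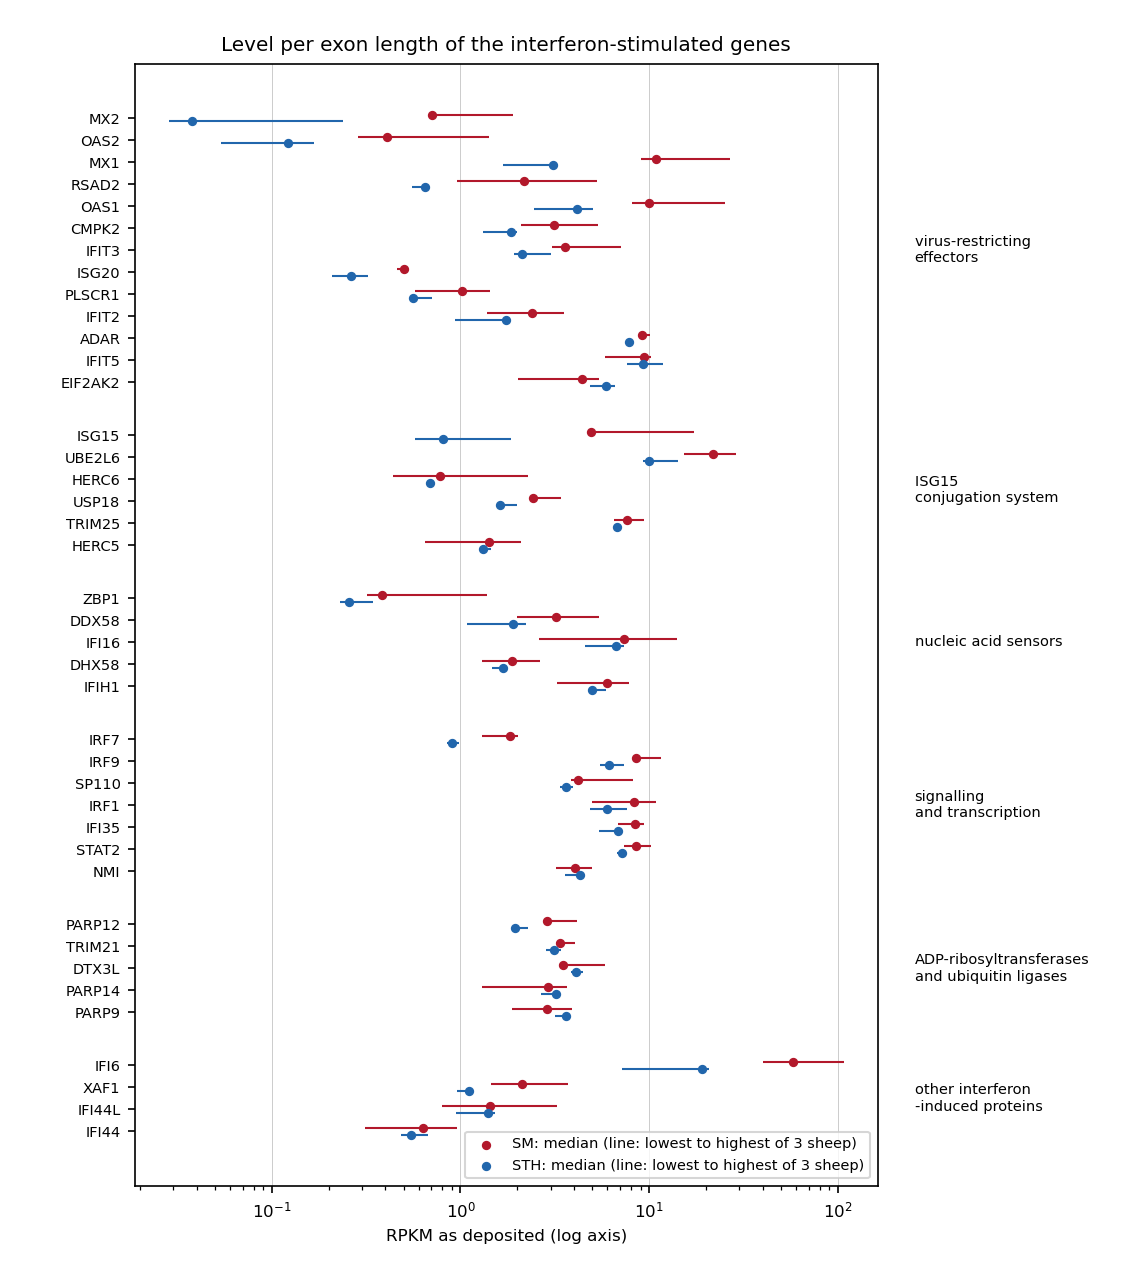
Each row is 1 tested member, with the deposited RPKM on a logarithmic horizontal axis, a point for the median and a line from the lowest to the highest of the 3 sheep in SM (red) and in STH (blue). IFI6 is the highest row at a median of 30.3 RPKM over the 6 sheep, and the lines of the breeds are apart in MX1, MX2, OAS2, ISG15 and IFI6 but overlap in HERC5, IFIH1, NMI, PARP9 and PARP14.

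Several members lie next to each other in Oar_v4.0. MX2 and MX1 lie head to tail on chromosome 1 (259515453 to 259554045 and 259561625 to 259596486) and OAS2 and OAS1 on chromosome 17 (61002833 to 61035319 and 61037615 to 61063301). Their log2 fold changes were 3.40 and 2.48 in the first pair and 2.59 and 1.85 in the second. CMPK2 and RSAD2 lie 8963 bases apart on chromosome 3, with 0.99 and 2.11. IFI44L and IFI44 shared a sign as well (0.46 and 0.12), as did PARP9, DTX3L and PARP14 (-0.32, -0.03 and -0.28). IFIT2 and IFIT3 shared a sign too. HERC5 and HERC6 differed in sign, as did IFIT3 and IFIT5, which have 2 genes between them. HERC5 (SE 0.38) and IFIT5 (SE 0.24) were negative by less than their SE. HERC5 and HERC6 are 7264 bases apart on chromosome 6 with -0.02 and 0.73, and IFIT2, IFIT3 and IFIT5 lie on chromosome 22 with 0.68, 0.92 and -0.22. These neighbours are related copies except CMPK2 with RSAD2 and DTX3L with PARP9 and PARP14. How the authors' counting divided reads shared by copies is not given in the sources used here.

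Rows that correspond to members not found by name were also looked up. The RefSeq name table links IFIT1 to an identifier that the deposited values carry as LOC101102194, at 22.0, 23.8 and 6.04 CPM in SM and 11.8, 13.6 and 11.8 CPM in STH, with a log2 fold change of 0.48 (SE 0.43, adjusted p = 0.523 by quasi-likelihood in edgeR). BST2, which encodes tetherin, a protein that holds budding virus at the cell surface, is present as the ruminant copies BST-2A and BST-2B, with log2 fold changes of 1.78 and 1.79, each higher in SM at an unadjusted p under 0.05. BST-2B had 8.96, 28.8 and 11.1 CPM in SM and 6.55, 3.84 and 3.74 CPM in STH, so that SM lay above STH with 30034 as the highest animal. These rows are not counted among the members.

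The wider interferon pathway was described from lists that hold none of the tested members. Of 12 interferon ligand genes, 3 were found and none had enough counts for a test. IFNG, the ligand of the type II response, had 0 to 6 counts per sheep and IFNK, an interferon of keratinocytes, 0 in all 6 sheep, which allows up to 0.0672 to 0.104 CPM in a sheep. IFNE, an epithelial interferon, had 0 counts in the 3 SM sheep and 6, 22 and 3 counts in XW3, XW5 and XW8.

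Interferon receptors and kinases had a median log2 fold change of -0.01 over 11 genes, 0 higher and 1 lower at an unadjusted p under 0.05. The gene with the lowest p was JAK2, the kinase of the interferon gamma receptor, at -0.95 (SE 0.31), followed by IFNGR1 at -0.36 and STAT3 at 0.12. IFNAR1 and IFNAR2, the receptor chains of type I interferon, had -0.13 and -0.12. Upstream sensors and adaptors had a median of 0.03 over 16 genes, 0 higher and 1 lower at the same threshold. TBK1, the kinase that activates IRF3, had -0.93 (SE 0.33), TLR3, the endosomal RNA receptor, -0.59, and IRF3 itself 0.29.

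Interferon gamma targets had a median of 0.20 over 12 genes, 1 of them higher at an unadjusted p under 0.05. Without SM sheep 30034 the median turned to -0.26, with 0 at that threshold. ICAM1, an adhesion molecule, had a log2 fold change of 0.42, SOCS3, a feedback inhibitor, 0.77, and WARS, a tRNA synthetase, 0.49. The T cell attractant CXCL9, named after its values were seen, had 3.24, 46.8 and 7.24 CPM in SM and 37.6, 23.3 and 9.73 CPM in STH. Here SM sheep 30034 was the highest animal but the other 2 SM sheep were the lowest, and the log2 fold change of -0.30 was -2.18 without 30034. CXCL10, CXCL11 and IDO1, also chosen after their values were seen, were likewise highest in 30034 and had log2 fold changes of -0.58, -4.63 and -1.76 without it. In SM sheep 128 and 30126, CXCL11 then rested on only 2 and 0 counts and IDO1 on 8 and 20. CXCL10 was at 4.99 and 6.88 CPM in them, within the STH range of 3.51 to 11.9 CPM.

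Genes of class I antigen processing had a median of 0.44, with all 10 above 0. Of these, 4 had an unadjusted p under 0.05, against 7.21% of all genes higher. The median was 0.34 without SM sheep 30034, with 1 at that threshold, against 4.57% of all genes. TAP2, which carries peptides into the endoplasmic reticulum, had 45.5, 52.7 and 49.3 CPM in SM and 35.7, 31.9 and 33.6 CPM in STH. This was the member of that list in which the breeds did not overlap, with a log2 fold change of 0.54 (SE 0.14, adjusted p = 0.234 by quasi-likelihood in edgeR). TAPBP, which loads the peptides, and PSMB10, an immunoproteasome subunit, had 0.47 and 0.62.

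Further interferon-stimulated genes, not counted among the members, had a median of 0.33 over 30 genes. Of these, 13 were higher and 0 lower at an unadjusted p under 0.05, against 7.21% and 10.8% of all genes. The list is not fully separate from the members, since it includes BST-2A and BST-2B, the copies of BST2 described above. These copies are among the 13. The likelihood ratio test passed 3 of the 30, among them BST-2B, and DESeq2 4, among them BST-2A and BST-2B. All of them were higher in SM, where these tests called 0.868% and 1.02% of all genes. CLEC4F, a C-type lectin, had 1.29, 4.41 and 1.66 CPM in SM and 0.454, 0.189 and 0.0993 CPM in STH, the last of these at the limit that 3 counts allow. Its log2 fold change was 3.31 (SE 0.70, adjusted p = 0.1996 by quasi-likelihood in edgeR). LGALS3BP, a secreted glycoprotein, had 0.65 (SE 0.17) with all SM sheep above all STH sheep, but passed neither the likelihood ratio test nor DESeq2. Without SM sheep 30034, 5 of the 30 were higher at an unadjusted p under 0.05, against 4.57% of all genes, and the median was 0.24.

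**Figure D4:**
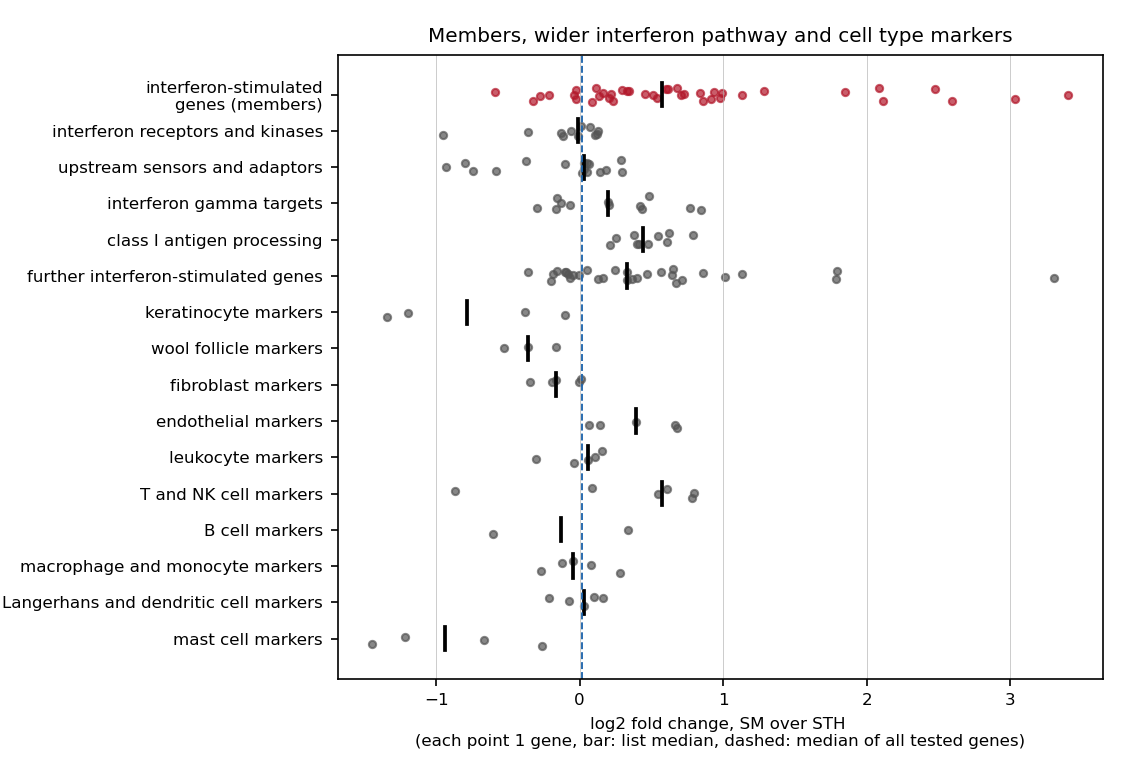
Each point is 1 tested gene at its edgeR log2 fold change of SM over STH on the horizontal axis, in rows for the 40 members (red), lists of the wider interferon pathway and lists of cell type markers (grey), with a bar at each list's median and a dashed line at the median of all genes. The members have a median of 0.57, class I antigen processing 0.44 and further interferon-stimulated genes 0.33, whereas receptors and kinases and upstream sensors lie at -0.01 and 0.03.

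Markers of immune cells moved in part with the members. The 5 leukocyte markers summed to 386 CPM in SM sheep 30034 and 243 to 330 CPM in the other sheep, and 0 of the 5 had an unadjusted p under 0.05. PTPRC, the pan-leukocyte surface phosphatase CD45, did not follow this sum, with a highest value of 56.9 CPM in STH sheep XW3 against 51.6 CPM in 30034 and a log2 fold change of -0.31. LAPTM5, a lysosomal protein of leukocytes, was 143 CPM in 30034 and 87.2 to 121 CPM in the others, with 0.15, and CORO1A, an actin-binding protein, had 0.11.

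The 8 T and NK cell markers summed to 39.6 CPM in 30034 and 19.8 to 30.0 CPM in the others, with a median log2 fold change of 0.58 over the 6 tested. CD3D and CD3E, chains of the T cell receptor complex, had 0.80 and 0.61 at an unadjusted p under 0.05, and 0 of the 6 reached it without 30034. CD8A, the marker of cytotoxic T cells, had -0.87 and CD3G 0.08, and NCR1 and KLRB1, which mark NK cells, were at or near 0. The 4 B cell markers summed to 1.69 to 4.34 CPM, with log2 fold changes of -0.60 in MS4A1 and 0.34 in CD79A and with CD79B at or near 0.

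The 5 macrophage and monocyte markers found summed to 223 CPM in 30034 and 177 to 199 CPM in the others, with a median log2 fold change of -0.05. CSF1R, the receptor for macrophage colony-stimulating factor, was the marker of that list that peaked in 30034, at 123 CPM against 76.4 to 105 CPM, and had 0.28. MRC1, the mannose receptor, and AIF1 had -0.27 and -0.12. The 5 Langerhans and dendritic cell markers found summed to 198 to 396 CPM with a median of 0.03. TCF4, a transcription factor of plasmacytoid dendritic cells, made up most of that sum, was highest in SM sheep 128 at 381 CPM and had -0.21. CD207, the Langerhans cell lectin, FLT3 and XCR1 were highest in 30034, at 24.0, 6.31 and 1.04 CPM, which was 1.74, 2.19 and 1.85 times the mean of the other 2 SM sheep. Their log2 fold changes were 0.10, 0.03 and 0.16. The remaining marker of that list, on 0 to 36 counts per sheep, was highest in STH sheep XW3 and had -0.08.

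Markers of other cell types varied in both directions. The 5 endothelial markers summed to 519 to 661 CPM in SM and 329 to 542 CPM in STH and had a median of 0.40, with VWF and CDH5 at 0.66 and 0.68, each at an unadjusted p under 0.05, and PECAM1 at 0.40. With SM sheep 30034 left out, 1 of the 5 reached that threshold. The 4 keratinocyte markers found had a median of -0.79, with the differentiation keratins KRT10 and KRT1 lower in SM at that threshold, at -1.34 and -1.20, and KRT5 at -0.38. The 4 mast cell markers had a median of -0.94, with CPA3 at -1.45 the one at that threshold, MS4A2 at -1.21 and HDC at -0.66. Wool follicle markers had a median of -0.36, with -0.52 in KRT27 at that threshold, -0.36 in KRT71 and -0.17 in KRT25. Fibroblast markers had a median of -0.16, with -0.35 in DCN at that threshold, -0.19 in COL3A1 and -0.16 in COL1A2. The part of these cell types in the values of the interferon-stimulated genes was not tested.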

How the data were processed

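Skin RNA of 3 SM and 3 STH sheep was sequenced as 1 library per animal. The authors checked the reads with FastQC and mapped them in CLC Genomics Workbench, by its advanced plugin for RNA-seq, to the sheep genome Oar_v4.0. The total counts deposited by the authors are whole numbers per gene without normalization, and the RPKM deposited by the authors was used for levels between genes. The TPM and scaled CPM columns of the deposit were not used. Whether the kit or the counting kept strand is not given in the sources used here.

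Genes that reached 10 counts in 3 or more sheep were tested by the quasi-likelihood test of edgeR 4.0.16 (R 4.3.3, limma 3.58.1) with TMM normalization, breed as the only term and Benjamini-Hochberg adjustment over all 15320 genes. A call needed an adjusted p under 0.05 with a change of over 1.5-fold, the thresholds stated in the methods of the study. The study applied them to edgeR as run in the CLC plugin, so its calls are not those of the main test here. It called genes in both directions, among them MX1, MX2, ISG15, IFI6, OAS1, OAS2 and RSAD2 as higher in SM. Alternatives were the likelihood ratio test, DESeq2 1.42.0, limma-voom, other scalings and filters, and leaving out each sheep. The likelihood ratio test and DESeq2 with a sheep left out were added after seeing the data. The common biological coefficient of variation was 0.248.

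On simulated counts with 200 of 15139 genes changed by 2 on the log2 scale, the quasi-likelihood test recovered 194 with 14 false calls, the likelihood ratio test 199 with 44 and DESeq2 198 with 50. The changed genes were drawn from those with higher mean counts, and no animal was simulated that deviated across many genes. The simulation therefore does not give the recovery in these data, where the quasi-likelihood test passed 0 genes. The members and lists were chosen with earlier results of these data known. Values by sheep are given, in each role group, for the 3 tested members with the smallest unadjusted p and the 1 with the largest, and 3 genes with the smallest p are named in each wider list. IFIT1 was looked up in the RefSeq gene table of assembly ARS-UI_Ramb_v3.0, of which no coordinates were used. A planned count of promoter motifs was not made, since no promoter sequences were used here. The values of 2 genes of the wider lists are not reported here by name.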

Additional observations from a re-analysis of the deposited data

How the results depend on the processing

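No paired analysis was possible because the sheep labels are individual animals that pair no SM with an STH sheep. With 3 sheep in a breed the precision is limited by the spread between animals, and in MX2, ISG15, ISG20 and ZBP1 also by low counts. By edgeR's quasi-likelihood test 0 members and 0 genes passed both thresholds. The members higher in SM were 8 by the likelihood ratio test and 8 by DESeq2, and 0 under the other alternatives with all sheep. Over all genes, those higher and lower were 133 and 219 by the likelihood ratio test, 156 and 283 by DESeq2, 2 and 6 with the length trend removed, 1 and 1 without a filter on low counts, 1 and 4 at an adjusted p under 0.1, and 0 and 2 with the newer dispersion estimate. With 1 sheep left out, the members higher ranged from 0 to 10 by the quasi-likelihood test, 4 to 13 by the likelihood ratio test and 5 to 14 by DESeq2, and those lower from 0 to 1 in all. Over all genes these fits gave 0 to 203, 54 to 537 and 83 to 565 higher and 0 to 972, 44 to 1687 and 47 to 1741 lower, with the upper ends without SM sheep 128. The members with an unadjusted p under 0.05 ranged from 8 to 22 higher and 0 to 1 lower, those without overlap of the breeds from 16 to 25 above and 0 to 2 below, and the median log2 fold change from 0.25 to 0.75. The lower ends of the first and the last were without SM sheep 30034, and the cause was not tested.

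Signs turned as follows. HERC5 was 0.0123 with upper quartile scaling and 0.0382 with the length trend removed, NMI 0.0295 with the length trend removed, DTX3L 0.0099 and 0.113 under the same 2 scalings, and IFIH1 -0.0052 by limma-voom. With 1 sheep left out, the log2 fold change ranged from -0.36 to 0.0134 for IFIT5, -0.43 to 0.33 for HERC5, -0.19 to 1.13 for HERC6, -0.20 to 0.38 for IFIH1, -0.0566 to 0.46 for DHX58, -0.32 to 0.77 for IFI16, -0.19 to 0.13 for NMI, -0.58 to 0.0644 for PARP14, -0.33 to 0.11 for DTX3L, -0.30 to 0.46 for IFI44 and -0.24 to 0.83 for IFI44L.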
